A study of Mus musculus with 8 samples.

Results

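The Ly6 and Ifitm families were followed through 9 of the 32285 genes counted in CD45+ immune cells of mouse mammary tumors. The members were Ly6a, Ly6c1, Ly6c2, Ly6e and Ly6i of the Ly6 family and Ifitm1, Ifitm2, Ifitm3 and Ifitm6 of the Ifitm family. They were selected by gene symbol, with earlier results of these data known. Single cells came from orthotopic tumors of the E0771 breast cancer line and of the lines E0771-Res1 and E0771-Res2, which the authors derived from E0771 tumors that relapsed after paclitaxel with an anti-PD-1 antibody. All mice were C57BL/6 hosts without an engineered allele, the tumors grew in the inguinal mammary fat pad until day 18, and no treatment of the sampled mice is given in the labels, which describe parental cells as naive. Each resistant line is 1 derived line, so a difference from parental E0771 belongs to that line and not to resistance in general. The data comprised 2 parental, 3 E0771-Res1 and 3 E0771-Res2 mice with 1 tumor per mouse, and a further parental mouse was not analysed here. CD45+ cells were sorted, marked with oligonucleotide tags per mouse, pooled and sequenced from their 3′ ends.

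Ly6 proteins are small surface proteins held in the membrane by a lipid (GPI) anchor, and several of their genes are switched on by interferons. The Ly6C antigen marks classical blood monocytes and declines as these cells become macrophages, while Ly6a encodes Sca-1, known from hematopoietic stem cells and activated lymphocytes. Ifitm proteins sit in the plasma and endosomal membranes, where they hinder the entry of enveloped viruses, and Ifitm genes respond to both type I and type II interferon.

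Each family formed a genomic cluster. The 5 Ly6 members lay within 157 kb of chromosome 15, and the 4 Ifitm members lay within 63.1 kb of chromosome 7 (GRCm38, GENCODE annotation). Ly6a spanned 74994877 to 74998031 and Ly6c2 spanned 75108158 to 75111970, both on the minus strand of chromosome 15. The promoter stretches of the Ifitm genes are shown because some genes of this cluster were called between monocyte states and others were not. The difference between these genes was not tested. Interferon-responsive genes often carry an interferon-stimulated response element (ISRE) or a gamma-activated site (GAS). Capitals mark GAAA-NN-GAAA (ISRE-like) and TTC-NNN-GAA (GAS-like), written here with hyphens and with N for any base, each searched on both strands from 250 bases before to 50 bases after the start. The sequences are RefSeq entries of GRCm38.p6, read 5′ to 3′ on the strand of the gene. They cover the 100 bases before the start in that entry or, for Ifitm3, the first 30 transcribed bases.
Ifitm3, chr7:141010715-141010744, minus strand: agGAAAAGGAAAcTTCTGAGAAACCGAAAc
Ifitm2, chr7:140955962-140956061, minus strand: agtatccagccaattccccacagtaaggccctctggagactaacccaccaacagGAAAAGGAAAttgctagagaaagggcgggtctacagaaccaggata
Ifitm1, chr7:140967976-140968075, plus strand: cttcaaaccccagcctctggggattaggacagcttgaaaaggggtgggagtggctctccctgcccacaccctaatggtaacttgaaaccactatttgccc
Ifitm6, chr7:141016893-141016992, minus strand: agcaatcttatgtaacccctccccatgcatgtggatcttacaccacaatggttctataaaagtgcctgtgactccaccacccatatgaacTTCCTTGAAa

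Of the 9 members, 6 had a promoter entry, and Ly6a, Ly6e and Ly6i had none. Ifitm3 held 2 ISRE-like matches and 1 GAS-like match, and the GAS-like match overlapped the downstream ISRE-like one. Ifitm2 held 1 ISRE-like match, Ifitm6 held 1 GAS-like match, and no match lay in the windows of Ifitm1, Ly6c1 or Ly6c2. In the GENCODE annotation Ifitm1 spans 140967221 to 140969825 and Ifitm6 spans 141015699 to 141017924. The printed stretches of Ifitm1 and Ifitm6 thus lie inside the annotated genes, whose outermost starts were not searched. Among all 32851 promoters, 3.44% held the ISRE-like letters and 8.30% held the GAS-like letters. A match describes these letters only and is not a measured binding site.

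Of 11430 deposited cells, 10605 were kept, with 5036667 to 18894504 counted molecules (unique molecular identifiers, UMIs) per mouse and a median of 5589 to 8160 UMIs per kept cell. Res2 cells were the shallowest, with medians of 7001, 5678 and 5589 UMIs against 8112 and 8058 in the parental mice. Cell classes were gated on marker UMIs, with no Ly6 or Ifitm gene in any gate: 3526 monocytes, 2291 macrophages (at least 10 C1qa UMIs), 168 conventional dendritic cells, 273 mature dendritic cells, 772 T cells and 224 NK cells. Genes outside the gates had their usual places, such as C1qb with a median of 6075 counts per 1000000 counts (CPM) in macrophages against 246 in monocytes, Trac with 658 CPM in T cells against 26.3 in NK cells, and H2-Ab1 with 11500 CPM in conventional dendritic cells against 2210 in monocytes. The T and NK gates were less clean, because Lyz2, a myeloid gene, had a median of 5410 CPM in T cells, with 18144 CPM in monocytes. Of the 772 T cells, 269 held 10 or more Lyz2 UMIs, as did 59 of 224 NK cells and 63 of 168 conventional dendritic cells, so levels are also given for the cells with fewer (Lyz2-low cells, a limit chosen after the values were seen). Dendritic cells are themselves myeloid, so their Lyz2-low cells are a subset and not a purer class.

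The members did not share 1 cell class. Levels are CPM of the UMIs summed over the cells of 1 class in 1 mouse and are compared within a gene, and sums cannot tell fewer expressing cells from less RNA per cell. Because the gates are measured on the same cells, class differences are described and not tested. Among these 6 gated classes, by the median over 8 mice, Ly6c2, Ly6e, Ly6i, Ifitm3 and Ifitm6 were highest in monocytes. Ifitm1 and Ifitm2 were highest in conventional dendritic cells, and Ly6a in T cells. Among Lyz2-low cells the leading class was the same for every member except Ifitm6, which was then highest in conventional dendritic cells, at a median of 413 CPM beside 409 in monocytes. Smaller gates outside the 6 classes, summed over mice, exceeded the medians of all 6 classes for some Ly6 members but for no Ifitm member. In 20 cells of the plasmacytoid dendritic gate Ly6a stood at 2956, Ly6c2 at 4509 and Ly6e at 3394 CPM. In 23 cells of the neutrophil gate Ly6i stood at 468 CPM.

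**Figure D1:**
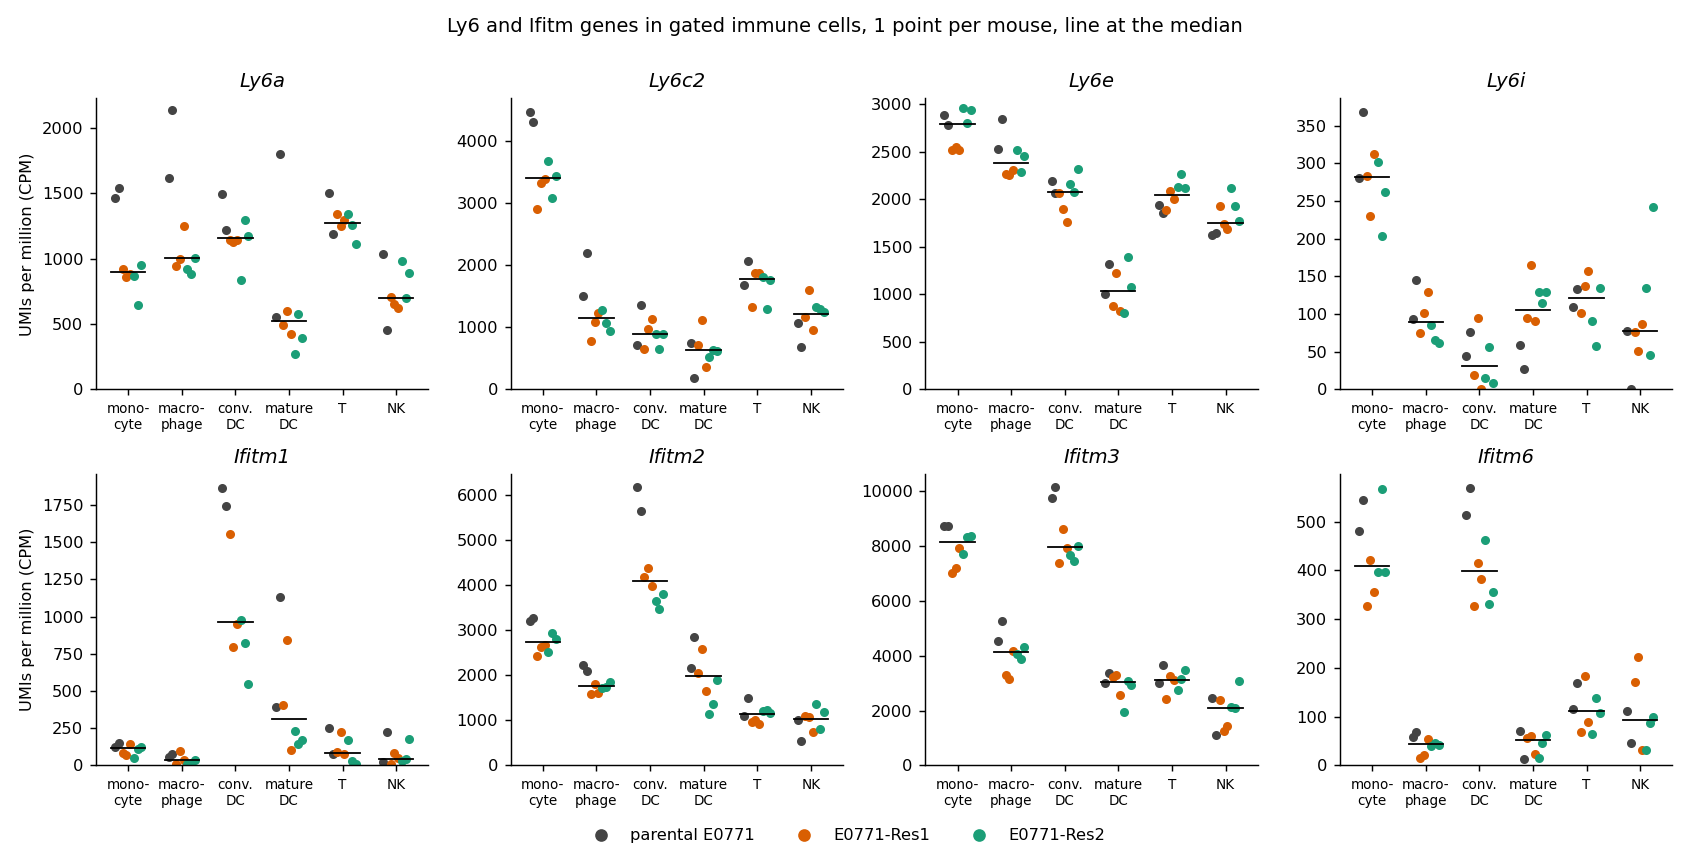
Level of 8 members (CPM, 1 panel per gene with its own axis) in 6 gated cell classes. Each point is 1 mouse and each line is the median of 8 mice. Ly6c2, Ly6i and Ifitm6 are high in monocytes and low in macrophages, Ly6a has no such fall, and Ifitm1 is highest in conventional dendritic cells, at 546 to 1865.

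Ly6c2, which encodes a Ly6C antigen, stood at 4470 and 4304 CPM in parental monocytes, at 2896, 3322 and 3381 CPM in E0771-Res1 monocytes and at 3675, 3086 and 3432 CPM in E0771-Res2 monocytes. In macrophages it stood at 1510 and 2191 CPM in parental, 773, 1084 and 1224 CPM in E0771-Res1 and 1272, 1068 and 936 CPM in E0771-Res2 tumors. The ranges of the classes did not overlap, and the monocyte level was 2.92 times the macrophage level in the median mouse (range 1.96 to 3.74, higher in 8 of 8 mice). At an equal depth of 2000 UMIs per cell, 85.1% of monocytes and 55.5% of macrophages held a Ly6c2 UMI, and the shares without thinning were 94.5% and 82.1%. T cells held a median of 1780 CPM, which was 931 CPM in Lyz2-low T cells (range 667 to 1594).

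Ly6c1, the near copy of Ly6c2, was almost undetected, with 40 UMIs in all monocytes, 27 in macrophages, 14 in T cells, 8 in conventional and 3 in mature dendritic cells. NK cells held 0 Ly6c1 UMIs, which allows a level of up to 1.89 CPM (3 UMIs, counting error only). The transcripts of both genes are alike near the 3′ end: 51.8% of the 31-base words in the last 500 bases of Ly6c2 transcripts also occur in Ly6c1, so the split of reads between them is uncertain. For the other members the overlap with any single member was at most 13.6% (Ly6a with Ly6c1), and Ly6e and Ifitm6 shared no such word.

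Ly6i was lower in macrophages than in monocytes, as Ly6c2 was, and its level was below that of Ly6c2. The genes parted in mature dendritic cells of the whole gate. That class had the lowest median for Ly6c2, but for Ly6i its median was above that of macrophages. It ranged from 204 to 368 CPM in monocytes (median 282) and from 61.0 to 145 CPM in macrophages (median 89.5), with no overlap, and the monocyte level was higher in 8 of 8 mice, 3.07 times in the median mouse. In Lyz2-low T cells it had a median of 33.0 CPM, and in conventional dendritic cells 31.3 CPM, with 1 of the 8 mice at 0.

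Ly6e is a broadly expressed interferon-induced member. Its medians were 2791 CPM in monocytes, 2379 in macrophages, 2071 in conventional dendritic cells, 2046 in T cells, 1754 in NK cells and 1039 in mature dendritic cells. The ranges of monocytes (2519 to 2953 CPM) and macrophages (2256 to 2837 CPM) overlapped, and monocytes were higher in 7 of 8 mice, by 1.14 times in the median mouse. Mature dendritic cells, at 807 to 1391 CPM, lay below each of the other classes without overlap.

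Ly6a parted from the other Ly6 members, since it was not lower in macrophages than in monocytes. Its medians were 1275 CPM in T cells, 1159 in conventional dendritic cells, 1003 in macrophages, 899.5 in monocytes, 702 in NK cells and 523 in mature dendritic cells. The ranges of neighboring classes in this order overlapped. Within each mouse, however, the macrophage level was above the monocyte level in 8 of 8 mice, with a monocyte to macrophage ratio of 0.705 to 0.968. In Lyz2-low T cells Ly6a had a median of 1558 CPM (range 1158 to 1939), and 73.6% of these cells held a Ly6a UMI at 2000 UMIs per cell (87.6% without thinning).

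Ifitm3, which blocks virus entry from endosomes, stood at 7013 to 8724 CPM in monocytes (median 8139) and at 7384 to 10165 CPM in conventional dendritic cells (median 7951). These classes overlapped, and dendritic cells were higher in 4 of 8 mice. Macrophages held 3158 to 5255 CPM, below both without overlap, and the monocyte level was 1.93 times the macrophage level in the median mouse. At 2000 UMIs per cell, 99.0% of monocytes, 95.4% of macrophages and 59.5% of Lyz2-low T cells held an Ifitm3 UMI (99.6%, 99.7% and 86.1% without thinning).

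Ifitm2 had the same fall from monocytes (2427 to 3268 CPM) to macrophages (1585 to 2218 CPM), by 1.53 times in the median mouse and without overlap. Unlike Ifitm3, it was higher in conventional dendritic cells than in monocytes in 8 of 8 mice, by 1.58 times in the median mouse. It held 3475 to 6182 CPM in conventional dendritic cells and a median of 456 CPM in Lyz2-low T cells.

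Among the 6 gated classes Ifitm1 was highest in conventional dendritic cells by the median, and above mature dendritic cells in 7 of 8 mice. The neutrophil gate, outside these classes, held 865 CPM in 23 cells summed over mice. In conventional dendritic cells it stood at 1865 and 1746 CPM in parental, 1558, 793 and 953 CPM in E0771-Res1 and 979, 821 and 546 CPM in E0771-Res2 tumors. Monocytes held 48.1 to 151 CPM, macrophages 11.2 to 97.7 CPM, and mature dendritic cells 105 to 1130 CPM. The dendritic level was 11.4 times the monocyte level in the median mouse (range 4.401 to 20.4, 8 of 8 mice), and 39.3% of conventional dendritic cells held an Ifitm1 UMI at 2000 UMIs per cell, against 5.95% of monocytes (56.2% and 13.04% without thinning). In Lyz2-low conventional dendritic cells the median was 1441 CPM (878 to 3094).

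Ifitm6 showed the widest gap between monocytes and macrophages of the 4 Ifitm members. It ranged from 326 to 566 CPM in monocytes, from 328 to 569 CPM in conventional dendritic cells and from 14.9 to 68.6 CPM in macrophages. The monocyte to macrophage ratio was 9.74 in the median mouse (6.51 to 21.9, 8 of 8 mice), and dendritic cells were above monocytes in 5 of 8 mice. At 2000 UMIs per cell, 36.7% of monocytes, 42.4% of conventional dendritic cells and 4.56% of macrophages held an Ifitm6 UMI (57.9%, 78.5% and 14.7% without thinning).

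RNA set free from other cells adds UMIs of every abundant gene to each droplet, and Lyz2-low T and NK cells were examined for it. They were chosen for few UMIs of Lyz2, which is abundant in monocytes. Their low levels of other monocyte genes may follow from that choice. In the whole T gate the monocyte level of Ifitm6 was 4.06 times the T cell level in the median mouse. The median of Ifitm6 in the whole gates was higher in T and NK cells than in macrophages. Ifitm6 stood at medians of 12.8 CPM in Lyz2-low T cells and 3.71 CPM in Lyz2-low NK cells, with 42 and 14 UMIs in all, and 2.06% and 1.58% of these cells held an Ifitm6 UMI at 2000 UMIs per cell (6.20% and 5.27% without thinning). Single mice reached 28.9 CPM in Lyz2-low T cells and 30.9 CPM in Lyz2-low NK cells, which is within the macrophage range of Ifitm6. The ratio of Ly6a to Ifitm6 UMIs was 2.36 in monocytes and 96.4 in Lyz2-low T cells, that of Ly6c2 to Ifitm6 was 8.29 and 57.0, and that of Ifitm3 to Ifitm6 was 18.6 and 71.6. The ratio of Ly6i to Ifitm6 was closer, at 0.653 in monocytes, 1.88 in Lyz2-low T cells and 1.14 in Lyz2-low NK cells. Macrophages are a further possible source of free RNA. In the median mouse the monocyte level was 9.74 times the macrophage level for Ifitm6 but 1.93 times for Ifitm3. The ratio of Ifitm3 to Ifitm6 is thus higher in macrophages than in monocytes, and the lymphoid ratios were not compared with macrophages. These lymphoid ratios rest on few Ifitm6 UMIs, and the part of free RNA in the lymphoid levels was not tested.

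The members also parted along C1qa, a complement gene that rises as monocytes become macrophages. Mean Ly6c2 levels in cells with 0 to 2, 3 to 9, 10 to 29 and at least 30 C1qa UMIs were 3571, 3064, 1827 and 984 CPM. Those of Ifitm6 were 436, 198, 62.7 and 33.8 CPM. Ifitm3 went from 8003 to 6504, 4412 and 3938 CPM, and Ly6i from 280 to 247, 154 and 66.0 CPM. Ly6e stayed between 2380 and 2742 CPM, and Ly6a had means of 1015, 1109, 1184 and 1249 CPM. These bins held 3526, 477, 955 and 1336 cells and were set by C1qa on the same cells, so they are described without a test.

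**Figure D2:**
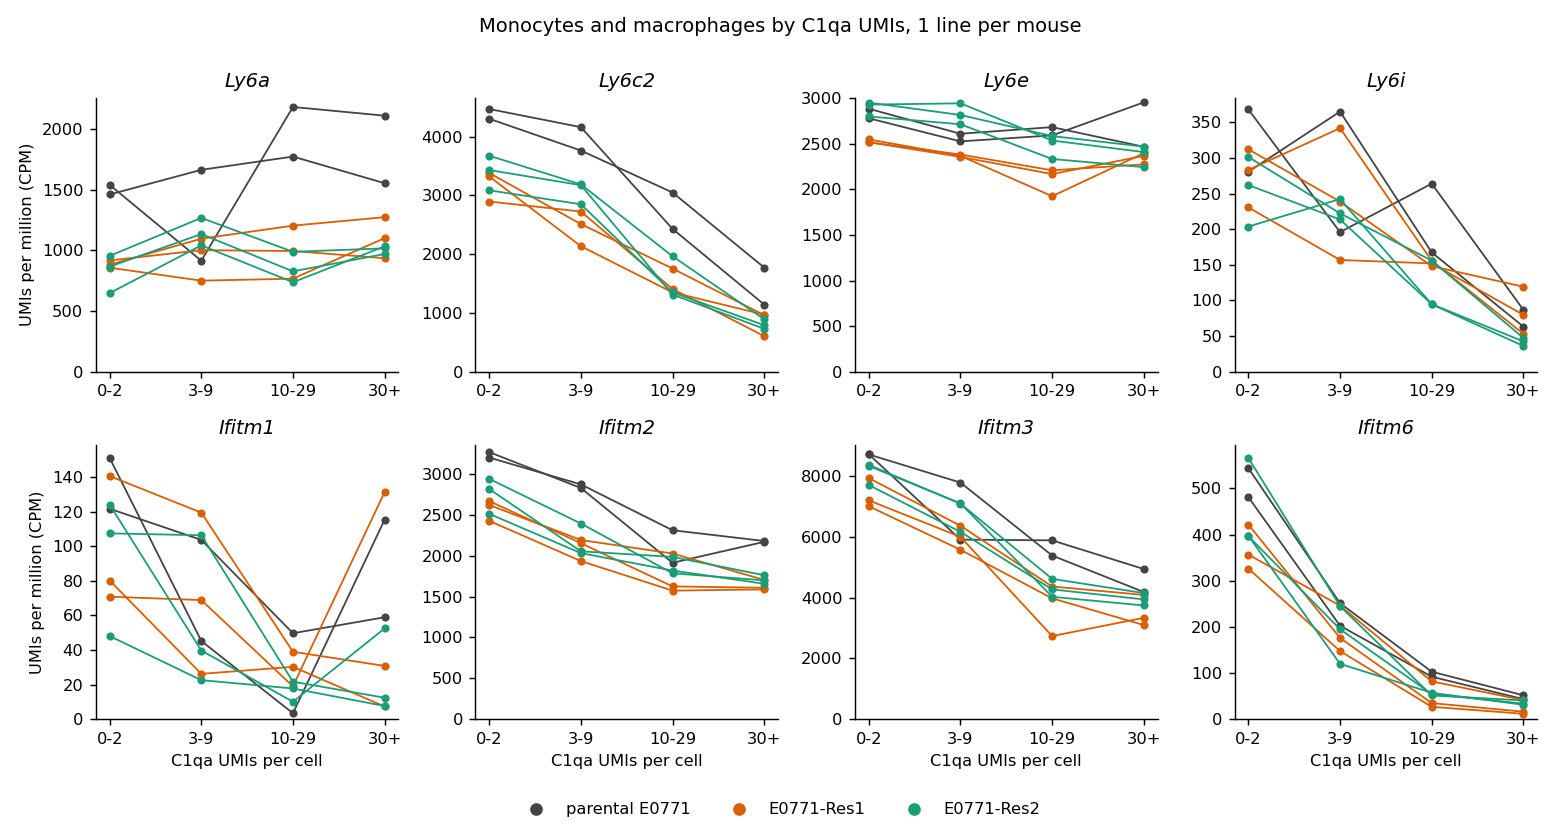
Level of the members (CPM) in monocytes and macrophages grouped by C1qa UMIs per cell (0 to 2, 3 to 9, 10 to 29, 30 or more), with 1 line per mouse. Ly6c2, Ly6i, Ifitm3 and Ifitm6 fall along C1qa, while Ly6e stays between means of 2380 and 2742 and the Ly6a lines do not fall together.

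Whether the members differ with the interferon state of a cell was asked within monocytes. Monocytes with at least 10 UMIs of Isg15, Ifit1, Ifit2, Ifit3 and Rsad2 per 10000 UMIs were called interferon-high, which gave 2521 of 3526 cells, and 243 cells lay between 8 and 12. No member was used in the split, but the split and the members come from the same cells. Interferon-high cells were 79.8% and 74.1% of monocytes in the parental, 63.7%, 62.0% and 66.1% in the E0771-Res1 and 71.7%, 70.2% and 80.9% in the E0771-Res2 mice. Their median depth was lower than that of the other monocytes in 5 of 8 mice, with the widest gap in Res1 replicate 1 at 6700 against 8001 UMIs.

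Of 8 members tested, 6 were higher in interferon-high monocytes, namely all 4 tested Ly6 genes, Ifitm1 and Ifitm3 (edgeR's quasi-likelihood test with the mouse as a block, Benjamini-Hochberg adjusted p under 0.05). Among all 7332 genes tested, 18.7% were higher. The called genes split into 1374 higher and 1209 lower with the normalization used (TMM), but into 883 higher and 2693 lower with library totals alone, which moved the median of all genes from -0.02 to -0.20 on the log2 scale. The 6 members were called in both. Ly6c1 had too few counts to be tested.

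Ly6a had the highest log2 fold change of the members. In interferon-high monocytes it stood at 1700 and 1802 CPM in parental, 1233, 1196 and 1125 CPM in E0771-Res1 and 1048, 837 and 1088 CPM in E0771-Res2 mice. In the other monocytes it stood at 482 and 689 CPM, at 456, 322 and 376 CPM and at 441, 232 and 443 CPM. The ranges did not overlap, the level was higher in 8 of 8 mice, and the log2 fold change was 1.73 (SE 0.0662, edgeR adjusted p = 1.39e-16).

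Ly6c2 stood at 3554 to 4894 CPM in interferon-high and 1503 to 2866 CPM in other monocytes, again with no overlap and higher in 8 of 8 mice. Its log2 fold change was 1.27 (SE 0.0655, edgeR adjusted p = 4.43e-14). The changes of Ly6e (0.63, adjusted p = 1.88e-11), Ly6i (0.79, adjusted p = 2.99e-08) and Ifitm3 (0.67, adjusted p = 2.29e-12) were smaller in the same edgeR fit, and each was higher in 8 of 8 mice. Ifitm3 ranged from 8337 to 9349 CPM against 5034 to 7338 CPM.

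Ifitm1 rose by 0.80 (SE 0.249, edgeR adjusted p = 0.0146) and was higher in 6 of 8 mice, at 33.4 to 197 CPM against 15.2 to 130 CPM. This call was lost with DESeq2 (adjusted p = 0.152), with a limit of 5 per 10000 (adjusted p = 0.105) and without Res1 replicate 3 (log2 fold change 0.53, adjusted p = 0.0592).

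Ifitm2 and Ifitm6 did not pass the threshold. Ifitm2 had means of 2755 and 2936 CPM in interferon-high and other monocytes and was lower in 8 of 8 mice by CPM. Its log2 fold change was 0.08 (edgeR adjusted p = 0.151) with TMM and -0.10 (adjusted p = 0.0538) with library totals, so its direction rests on the scaling. It passed as higher with a limit of 20 per 10000 (0.12, edgeR adjusted p = 0.0248) and without the filter on low counts (0.12, adjusted p = 0.0326). Ifitm6 had means of 416 and 481 CPM, was lower in 7 of 8 mice, and changed by -0.05 (edgeR adjusted p = 0.605). With library totals Ifitm6 was called lower, at -0.22 (adjusted p = 0.00590). Ifitm3 and Ifitm2 of the same cluster, which both hold ISRE-like letters near the start, thus differed in their call between these states. The difference between the genes was not tested.

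**Figure D3:**
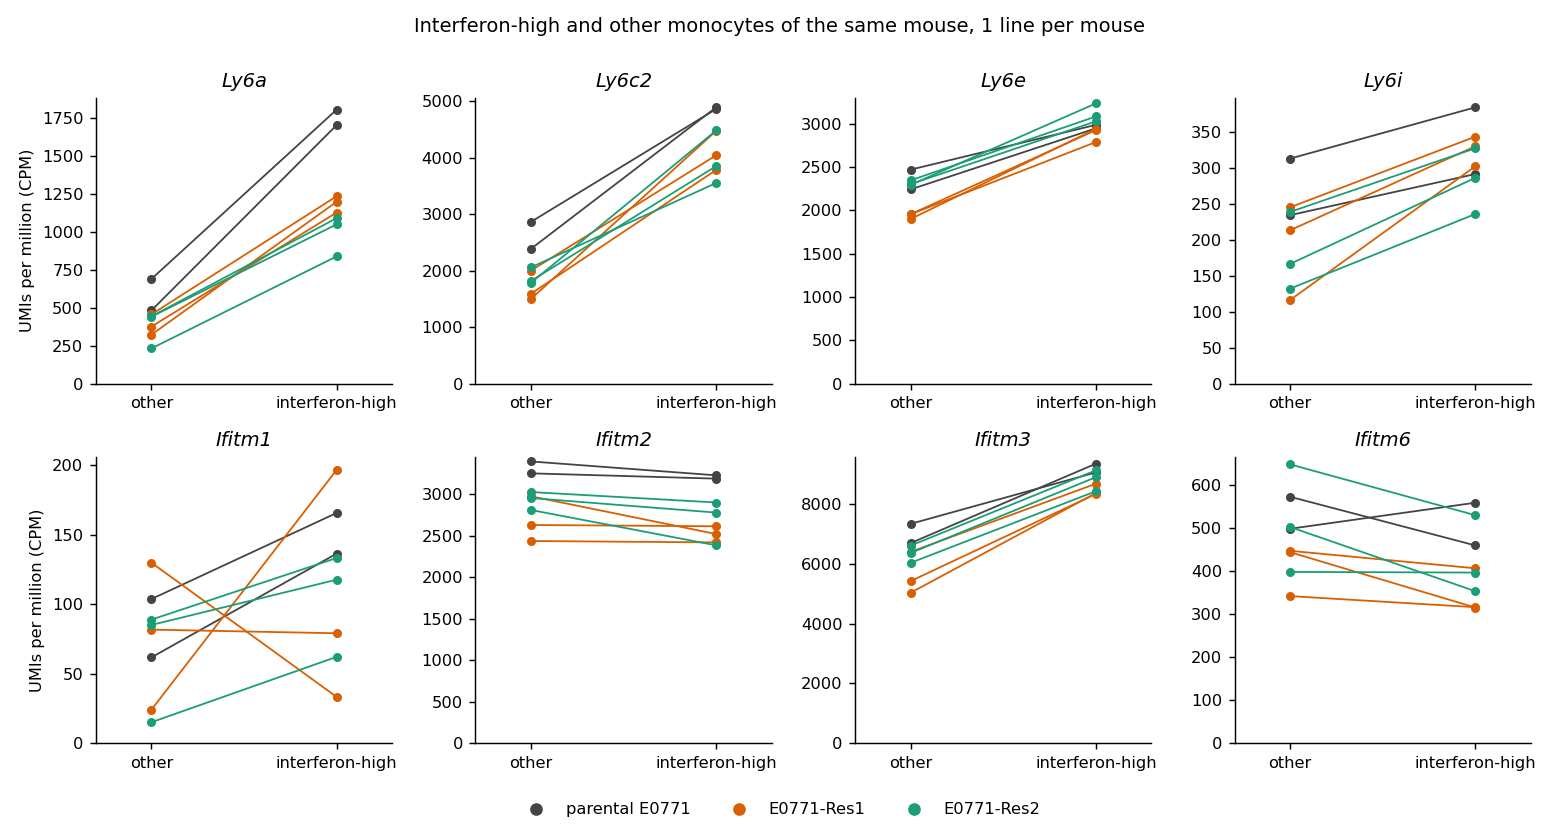
Level of the members (CPM) in other and in interferon-high monocytes, with 1 line per mouse. Ly6a, Ly6c2, Ly6e, Ly6i and Ifitm3 rise in all 8 mice, Ifitm1 rises in 6, and Ifitm2 is slightly lower in CPM in 8 although its fitted log2 change is 0.08 with TMM and -0.10 with library totals.

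Other interferon genes gave a reference for the split. Of the type I interferon list, 22 of 22 tested genes were higher, and without the 5 genes of the split 17 of 17 were higher, with a median log2 fold change of 1.80 (all genes -0.02). Of the interferon gamma list 18 of 19 were higher. Among the receptor genes 2 of 4 were higher and Ifngr1, a chain of the interferon gamma receptor, was lower (-0.80).

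Among the tumor lines, Ly6a was the only member that passed the threshold in monocytes and in macrophages. The question was whether levels of the members differ between parental E0771 and resistant tumors. In monocytes Ly6a stood at 1460 and 1540 CPM in the 2 parental mice. It stood at 917, 857 and 882 CPM in E0771-Res1 and at 866, 647 and 955 CPM in E0771-Res2 mice. Both parental values lay above all 6 resistant values. The parental mean was 1500.0 ± 56.1 CPM (SD, n = 2), against 885 ± 30.3 CPM in E0771-Res1 and 823 ± 158 CPM in E0771-Res2 (SD, n = 3 each).

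The log2 fold change of Ly6a in monocytes was -0.75 (SE 0.128, approximate 95% interval -1.001 to -0.49) for E0771-Res1 against parental, with an adjusted p of 0.0427 in edgeR's quasi-likelihood test. For E0771-Res2 it was -0.85 (SE 0.128, interval -1.11 to -0.60, edgeR adjusted p = 0.00413). Of 8 members tested 1 was called in each comparison, while 0.0757% and 1.75% of the 9242 genes tested were called. Both comparisons share the parental mice. Between the resistant lines Ly6a differed by -0.11 (adjusted p = 0.730), and 0 of 8 members were called, with 1.85% of all genes called.

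In macrophages Ly6a stood at 1616 and 2133 CPM in parental, at 948, 1001 and 1250 CPM in E0771-Res1 and at 919, 886 and 1006 CPM in E0771-Res2 tumors. The groups again did not overlap. Parental macrophages averaged 1875 ± 366 CPM (SD, n = 2), with 1066 ± 162 CPM in E0771-Res1 and 937 ± 62.2 CPM in E0771-Res2 (SD, n = 3 each). The log2 fold change was -0.84 (SE 0.140, edgeR adjusted p = 0.0419) for E0771-Res1 and -1.01 (SE 0.140, edgeR adjusted p = 0.00289) for E0771-Res2. Of the 9101 genes tested, 0.242% and 2.10% were called, and 1 of 8 members was called in each. Between the resistant lines Ly6a differed by -0.17 (adjusted p = 0.550), and 0 of 8 members were called, with 2.76% of all genes called.

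**Figure D4:**
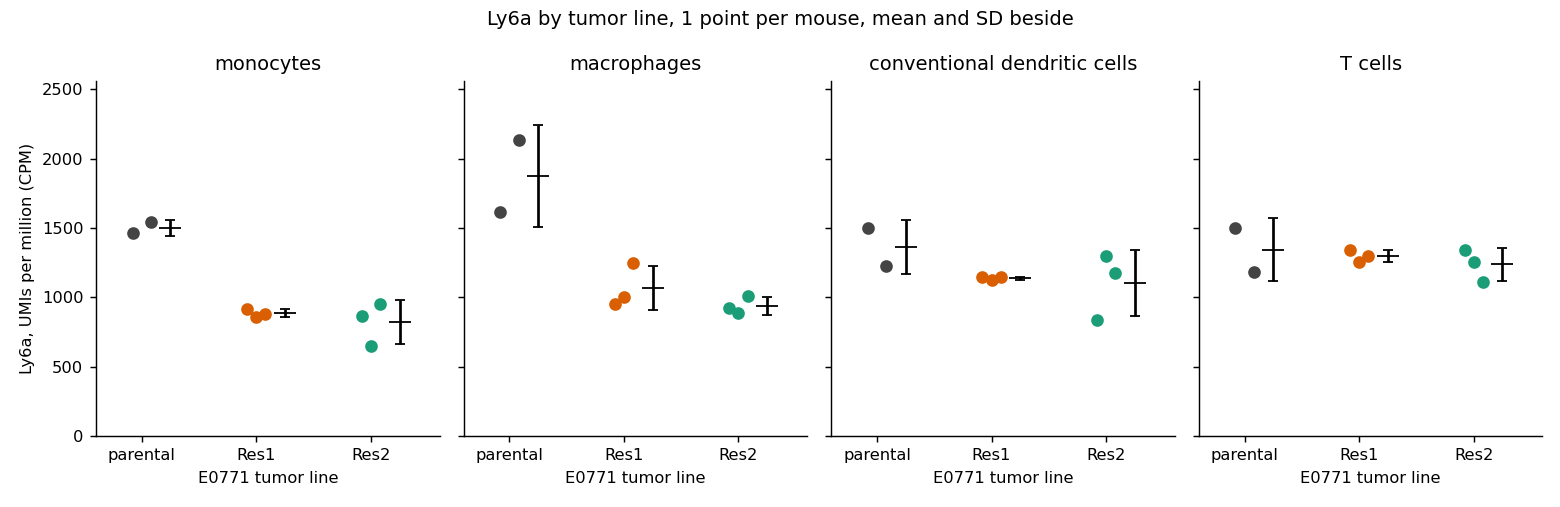
Level of Ly6a (CPM) by tumor line in monocytes, macrophages, conventional dendritic cells and T cells. Each point is 1 mouse, and the bar and line give the mean and SD of 2 parental and 3 mice of each resistant line. The parental mice lie above all resistant mice in monocytes and macrophages and overlap them in T cells and conventional dendritic cells.

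These calls rest on 2 parental mice. Where either is left out, here and in later comparisons, the lone parental mouse is assumed to vary like the other groups, since the spread then comes from those alone. In monocytes both were lost without parental replicate 1 (adjusted p = 0.171 for E0771-Res1 and 0.0547 for E0771-Res2) or without parental replicate 3 (adjusted p = 0.735 and 0.0617), and the E0771-Res1 call was also lost without Res1 replicate 3 (adjusted p = 0.0597). In macrophages both were lost without parental replicate 3 (log2 fold change -0.60, adjusted p = 0.400, and -0.78, adjusted p = 0.0609). The E0771-Res1 call in macrophages was lost without Res1 replicate 1 (adjusted p = 0.122), Res1 replicate 2 (adjusted p = 0.0823) or Res2 replicate 1 (adjusted p = 0.0796). The direction was negative under every alternative run for these 4 values.

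Markers of other cells moved with the parental macrophages. The summed level of 9 epithelial, stromal, endothelial and red cell genes was 65.2 and 199.985 CPM in the parental macrophages, 41.9 to 44.6 CPM in E0771-Res1 and 42.0 to 50.7 CPM in E0771-Res2. The highest value belonged to parental replicate 1, where the hemoglobin genes Hbb-bs and Hba-a1 stood at 90.0 and 41.6 CPM, while Krt18, Col1a1 and Col3a1 stood at 0 in both parental mice and Epcam at 1.05 CPM or below. Krt8, also epithelial, stood at 3.68 and 14.6 CPM in parental, 3.26 to 5.69 CPM in E0771-Res1 and 6.78 to 9.57 CPM in E0771-Res2 macrophages. Pecam1, which myeloid cells also express, stood at 48.3 and 63.2 CPM in parental and 19.9 to 39.6 CPM in resistant macrophages. In monocytes the sum was 25.0 to 26.7 CPM in parental and 21.3 to 45.9 CPM in resistant tumors. Parental replicate 3 also had a higher sum than every resistant mouse. The part of the other cells in the Ly6a difference was not tested.

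The other members had lower fitted levels in resistant macrophages and monocytes, apart from Ly6e in E0771-Res2 monocytes (0.04). None of them passed the threshold. The counts and medians that follow include Ly6a. In macrophages 8 of 8 members were below 0 in both comparisons, with medians of -0.66 and -0.63 (all genes 0.00). In monocytes 8 of 8 and 7 of 8 were below 0, with medians of -0.38 and -0.27 (all genes 0.01). Ly6c2 came closest, at -0.88 (edgeR adjusted p = 0.0650) and -0.77 (adjusted p = 0.0515) in macrophages and at -0.44 (adjusted p = 0.155) and -0.36 (adjusted p = 0.110) in monocytes. Its macrophage values passed the threshold in 5 and 9 of the 18 alternatives run. Ifitm2 in macrophages was -0.39 (edgeR adjusted p = 0.0675) and -0.30 (adjusted p = 0.113).

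**Figure D5:**
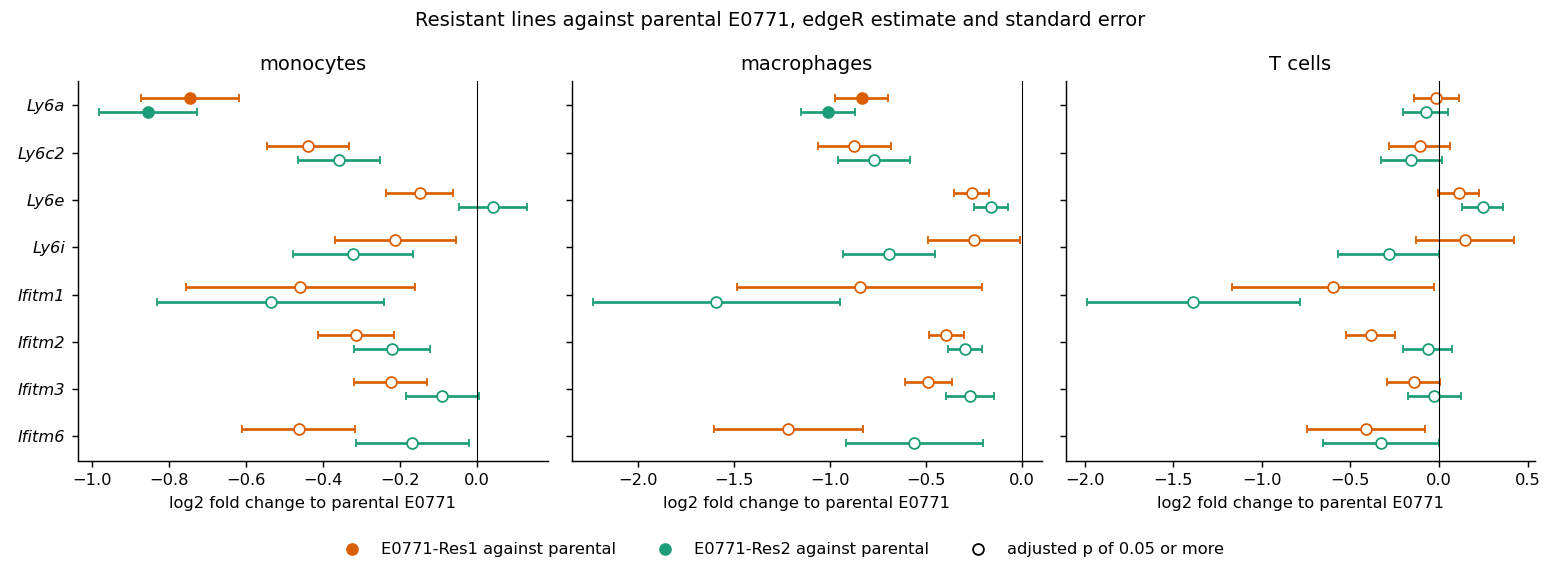
Log2 fold change and SE (edgeR) of each member against parental E0771, for E0771-Res1 and E0771-Res2, in monocytes, macrophages and T cells, with a different horizontal range in each panel. Filled points have an adjusted p under 0.05, which among the members holds for Ly6a in monocytes and macrophages.

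The Ly6a difference was also measured within the monocyte states, because the share of interferon-high cells varied between mice. This division was added after the data had been seen. Within interferon-high monocytes Ly6a differed from parental by -0.53 (edgeR adjusted p = 0.129) in E0771-Res1 and by -0.78 (SE 0.110, adjusted p = 0.000784) in E0771-Res2, where 1 of 8 members and 1.50% of all genes were called. Within the other monocytes the values were -0.53 (adjusted p = 0.586) and -0.63 (adjusted p = 0.368).

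In T cells Ly6a stood at 1503 and 1185 CPM in parental, 1341, 1251 and 1296 CPM in E0771-Res1 and 1342, 1254 and 1111 CPM in E0771-Res2 mice. The groups overlapped, and the log2 fold changes were -0.01 (approximate 95% interval -0.27 to 0.24) and -0.07 (interval -0.33 to 0.18). No member was called in T cells in any of the 3 comparisons with edgeR, while 0.0266%, 0.892% and 0.652% of the 7513 genes tested were called (E0771-Res1 against parental, E0771-Res2 against parental, and E0771-Res2 against E0771-Res1). At an unadjusted p under 0.05, 1, 2 and 1 of 8 members and 381, 776 and 729 of all genes passed, and DESeq2 called 0 members in each.

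Whether the Ly6a difference itself differed between classes was tested by the interaction of tumor line and class with the mouse as a block, a test added after the data had been seen. For E0771-Res2 against parental, the macrophage difference minus the T cell difference was -0.91 (SE 0.190, edgeR adjusted p = 0.0422), where 0.387% of genes were called, and the monocyte difference minus the T cell difference was -0.83 (SE 0.167, adjusted p = 0.0411), where 0.225% were called. For E0771-Res1 the same values were -0.81 (adjusted p = 0.248, with 0 genes called) and -0.75 (adjusted p = 0.198, with 0.0205% called). The macrophage and monocyte differences were not told apart by this test (-0.10, adjusted p = 0.969, for E0771-Res1 and -0.15, adjusted p = 0.864, for E0771-Res2). The E0771-Res2 calls were lost without parental replicate 3 (-0.55, adjusted p = 0.487, for macrophages and -0.64, adjusted p = 0.423, for monocytes), without Res2 replicate 1 (adjusted p = 0.159 and 0.0843), without Res2 replicate 2 (adjusted p = 0.104 and 0.192) and with library totals (adjusted p = 0.0597 and 0.0799). The macrophage call was also lost without Res1 replicate 1 (adjusted p = 0.0665). The E0771-Res1 value passed for macrophages without parental replicate 1 (-1.21, adjusted p = 0.0326, again with 1 parental mouse) and for monocytes without Res2 replicate 3 (adjusted p = 0.0378).

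Ifitm3 differed between the tumor lines among Lyz2-low T cells but was not called in the whole T gate. In the whole gate E0771-Res2 differed by -0.03 (edgeR adjusted p = 0.975) from parental and by 0.12 (adjusted p = 0.842) from E0771-Res1. In Lyz2-low T cells Ifitm3 stood at 1135 and 808 CPM in parental, 728, 774 and 863 CPM in E0771-Res1 and 1891, 1409 and 1743 CPM in E0771-Res2 mice. All 3 E0771-Res2 values lay above the others, with a log2 fold change of 0.84 (SE 0.173, edgeR adjusted p = 0.0137) against parental and 1.12 (SE 0.154, adjusted p = 0.000195) against E0771-Res1. The latter call held without each mouse in turn (adjusted p of at most 0.00535), while the former was lost without parental replicate 3 (0.63, adjusted p = 0.245) or Res2 replicate 1 (0.75, adjusted p = 0.0809).

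Ly6e in Lyz2-low T cells stood at 1522 and 1385 CPM in parental, 1559, 1967 and 1709 CPM in E0771-Res1 and 2162, 2171 and 2036 CPM in E0771-Res2 mice. It was 0.61 higher in E0771-Res2 than in parental mice (SE 0.142, edgeR adjusted p = 0.0295), without overlap. This call was lost without either parental mouse (adjusted p = 0.0625 and 0.302), without Res1 replicate 3 (adjusted p = 0.0510), without Res2 replicate 1, 2 or 3 (adjusted p = 0.101, 0.0885 and 0.0505) and with library totals (adjusted p = 0.0640). Of the 5846 genes tested in these cells, 0.0342%, 1.47% and 2.46% were called, with 0, 2 and 1 of the members among them. Lyz2 itself moved with this result, at 468 and 496 CPM in parental, 522 to 551 CPM in E0771-Res1 and 690 to 749 CPM in E0771-Res2 Lyz2-low T cells, and its part was not tested.

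With Lyz2-low T cells in the interaction, 3 members were called for E0771-Res2 against parental in each test, beside 1 with the whole T gate. These fits were not repeated with mice left out or with library totals. Macrophages against T cells gave -1.14 for Ly6a (edgeR adjusted p = 0.0169), -1.20 for Ly6c2 (adjusted p = 0.00445) and -1.05 for Ifitm3 (adjusted p = 0.00694), where 0.923% of genes were called. Monocytes against T cells gave -1.06 for Ly6a (edgeR adjusted p = 0.00560), -0.85 for Ly6c2 (adjusted p = 0.0438) and -0.92 for Ifitm3 (adjusted p = 0.00560), where 0.674% were called. For E0771-Res1 1 member was called against macrophages, Ly6c2 at -1.16 (edgeR adjusted p = 0.0473), with 0.0222% of genes called, and 0 members against monocytes, with 0.0715% of genes called.

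In conventional dendritic cells 0 of 7 members tested were called by edgeR in any comparison, and 0% of the 2714 genes tested were called. At an unadjusted p under 0.05, 3, 4 and 1 members and 215, 234 and 138 genes passed, and DESeq2 called 1, 5 and 3 genes. The fit left out Res1 replicate 2, which held 9 of these cells, and the other mice held 14 to 44. Ifitm1 had the lowest fitted value, at -1.18 (SE 0.240, edgeR adjusted p = 0.142) in E0771-Res2 against parental, with all 3 E0771-Res2 values given above under both parental values, and DESeq2 called this 1 member. In Lyz2-low dendritic cells the groups overlapped for Ifitm1, at 1447 and 3094 CPM in parental against 2040, 1122 and 1002 CPM in E0771-Res2 mice. The fit there, which left out 3 mice with fewer than 10 such cells, gave -0.53 (edgeR adjusted p = 0.691).

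The interferon lists gave the surroundings of the Ly6a difference. Of the type I interferon list 0 of 22 genes were called against parental in monocytes or macrophages, with medians of -0.25 and -0.01 in monocytes and -0.42 and -0.31 in macrophages for E0771-Res1 and E0771-Res2. Of the interferon gamma list 12 of 19 were lower in E0771-Res2 macrophages (median -0.83) and 2 of 19 in E0771-Res1 macrophages (median -0.61). In monocytes 4 of 19 were lower in E0771-Res2 (median -0.40) and 0 of 19 in E0771-Res1 (median -0.32). None of the 4 interferon receptor genes was called.

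Gbp2, an interferon gamma induced GTPase, changed by -0.90 (edgeR adjusted p = 0.0525) and -1.10 (adjusted p = 0.00430) in macrophages of E0771-Res1 and E0771-Res2. Irf1, a transcription factor induced by interferon gamma, changed by -0.86 (edgeR adjusted p = 0.0306) and -0.89 (adjusted p = 0.00384). Isg15, a ubiquitin-like type I interferon product, changed by -0.61 (edgeR adjusted p = 0.176) and -0.59 (adjusted p = 0.137), which did not pass. Bst2, an interferon-induced protein that tethers virus particles to the cell, and Ifit3 were not called against parental in monocytes or macrophages. In monocytes Gbp2 changed by -0.33 (edgeR adjusted p = 0.478) and -0.67 (adjusted p = 0.0241) in E0771-Res1 and E0771-Res2. Irf1 changed there by -0.42 (edgeR adjusted p = 0.564) and -0.53 (adjusted p = 0.229). In E0771-Res2 T cells Gbp2 changed by -0.77 (edgeR adjusted p = 0.116) and Irf1 by -0.55 (adjusted p = 0.379). A link of these genes to the Ly6a difference was not tested.

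Over 47 sums of a class in a mouse, the genes most like each member by Pearson's r of log2 CPM, among 6151 genes, were Ms4a6b for Ly6a (0.75), Sdcbp for Ly6e (0.94), Lyz2 for Ly6c2 (0.87), Il1rn for Ly6i (0.77), S100a11 for Ifitm1 (0.79), Rnh1 for Ifitm3 (0.93) and Plac8 for Ifitm6 (0.94). Plac8 is 1 of the genes of the monocyte gate. For Ifitm2 the most like gene was another member, Ifitm3 (0.89). These points share mice and library depth, and the values are descriptions. Of 32 further Ly6 and Ifitm family genes looked up, 19 had at least 1 UMI and 0 reached 10 CPM in pooled cells. The pool held the monocytes, macrophages, conventional and mature dendritic cells, T cells and NK cells, without the other kept cells. Within a single class of this pool the highest level was 28.3 CPM, for Ifitm10 in NK cells.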

How the data were processed

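Single-cell RNA-seq covered live (DAPI-) CD45+ cells of day 18 tumors grown from parental E0771, E0771-Res1 or E0771-Res2, with 1 tumor per mouse and 8 mice grouped by the labels. The authors sorted the cells, marked each mouse with Cell Multiplexing Oligos, pooled them, prepared libraries with the Chromium Single Cell 3′ kit and sequenced them on an Illumina NovaSeq. The deposited values are raw UMI counts per gene and cell, which the authors made with Cell Ranger 6.1.2 against mm10, and Seurat is also named in the submitters' processing notes. Read assignment between near-identical family genes follows the authors' counting. Doublets were not called here, and 394 cells with markers of conflicting classes were left out. A further 2403 kept cells met no gate and were left out too. They were 11.0% and 16.5% of kept cells in parental and 15.8%, 16.2% and 15.6% in E0771-Res1 mice. In E0771-Res2 mice, with the shallowest cells, they were 28.2%, 27.3% and 34.9%. The part of this loss in the tumor line differences was not tested. No cell barcode was shared between mice.

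Cells with 500 to 6000 genes and under 10% mitochondrial counts were kept. Genes named mt-, Rpl, Rps or Gm were dropped, leaving 23649 of 32285, and 9 tag features were not used. Classes were gated on summed marker UMIs: at least 10 C1qa for macrophages, at least 5 for 5 monocyte genes with C1qa under 3, at least 2 for T (Cd3d, Cd3e, Cd3g) and NK genes, and at least 3 for dendritic genes. For each class, the UMIs of a mouse were added up where it had 10 or more cells, then filtered for low counts and tested with edgeR 4.0.16 (quasi-likelihood, TMM, Benjamini-Hochberg over all genes tested, two-sided, threshold 0.05) in R 4.3.3. All 3 tumor lines entered 1 fit per class. The interferon comparison and the class interactions had the mouse as a block. DESeq2 1.42.0 was an alternative. The edgeR tests were checked on simulated data with known changes. Those changes were larger than the Ly6a differences between tumor lines and had a fixed spread, so the check does not cover calls of that size. Intervals of fold changes are approximate 95% intervals, set at 2 SE on either side of the estimate. Intervals of pooled counts are 95% and cover counting error only. Labels show separate mice within a group, and no pair of mice agreed within sampling noise (2.66 to 12.4 times the chi-square that counting alone gives). Tables were made with Python 3.11.15, numpy 2.4.6, scipy 1.17.1 and pandas 2.3.3, and figures with matplotlib 3.10.9.

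All 9 members are always named. Pathway genes are given by counts over the interferon lists, and likeness names the 3 genes with the highest correlation per member, of which the first is printed. The members, gates and lists were chosen with earlier results of these data known. The Lyz2-low gates, the library-total scaling, the gates scaled to cell depth, the monocyte strata and the class interactions were added after the data had been seen. Promoter sequences come from RefSeq, and gene positions from the reference annotation of the same build (GRCm38).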

Additional observations from a re-analysis of the deposited data

Results flagged for a closer look

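The Ly6a difference between E0771-Res2 and parental tumors was larger in macrophages and monocytes than in T cells by a test of the difference itself. Dendritic cells were not in this test, and in conventional dendritic cells Ly6a changed by -0.28 (edgeR adjusted p = 0.725) in E0771-Res2. On the log2 scale the macrophage difference minus the T cell difference was -0.91 (SE 0.190, edgeR adjusted p = 0.0422), and the monocyte difference minus the T cell difference was -0.83 (SE 0.167, edgeR adjusted p = 0.0411). They passed the threshold in 5 and 6 of the 10 alternatives run, with the monocyte value without Res1 replicate 3 at the threshold itself, and the mice whose removal ended the calls are named in the report. Of the T cells in the gate, 269 of 772 held 10 or more Lyz2 UMIs, and with the other T cells alone the values were -1.14 (edgeR adjusted p = 0.0169) and -1.06 (edgeR adjusted p = 0.00560). The alternatives that ended the calls above, leaving out mice and library totals, were not run for these other T cells. Lyz2 in them stood at 468 and 496 CPM in parental and 690 to 749 CPM in E0771-Res2 mice, and its part was not tested.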

How the results depend on the processing

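The numbers of mice with the same replicate number did not pair them (correlation of deviations from -0.04 to 0.06 for same-numbered mice), so a fit with a replicate block is given only here. Genes called between E0771-Res1 and parental monocytes were 7 and became 29 with DESeq2, 150 without a filter on low counts, 26 with the replicate block, 1 with a marker sum of at least 10, 0 in interferon-high and 2 in other monocytes, and members called (1) became 2, 4, 2, 0, 0 and 0. For E0771-Res2 against parental monocytes (162 genes, 1 member) the counts were 456 and 3 without the filter, 57 genes at a marker sum of at least 10, 263 genes with depth-scaled gates, and 9 and 0 in other monocytes. For E0771-Res2 against E0771-Res1 monocytes (171) they were 497, 86, 293 and 76 genes in the same order.

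In macrophages E0771-Res1 against parental gave 22 genes and 1 member, 89 and 4 with DESeq2, 369 and 6 without the filter, 46 genes with the replicate block, 89 and 4 with C1qa of at least 5, 35 and 2 with C1qa of at least 20, and 58 and 3 with scaled gates. E0771-Res2 against parental (191 genes, 1 member) gave 571 and 5 without the filter, 3 members with C1qa of at least 5, and 2 members with DESeq2, library totals, mitochondrial, ribosomal and Gm genes kept, the replicate block or scaled gates. E0771-Res2 against E0771-Res1 (251 genes, 0 members) gave 615 and 3 without the filter.

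In conventional dendritic cells (0 genes, 0 members) E0771-Res1 against parental gave 1 gene with DESeq2, 28 without the filter, 2 with the replicate block and 6 for Lyz2-low cells. E0771-Res2 against parental gave 5, 58, 10 and 19 in this order and 2 at a marker sum of at least 5, with 1 member (Ifitm1) under DESeq2, no filter, the replicate block and that sum. E0771-Res2 against E0771-Res1 gave 3, 24, 12 and 3 genes. In T cells E0771-Res1 against parental (2 genes) gave 4 with DESeq2, 54 without the filter, 11 with the replicate block and 4 with at least 3 Cd3 UMIs. E0771-Res2 against parental (67) gave 197, 125 with the replicate block and 34 with at least 3 Cd3 UMIs, with 1 member without the filter and 2 among Lyz2-low cells. E0771-Res2 against E0771-Res1 (49) gave 162, 85 with the replicate block and 144 for Lyz2-low cells, with 1 member without the filter and 1 for Lyz2-low cells. The interferon comparison (2583 genes) gave 1694 with DESeq2. The causes were not tested.

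Leaving out each mouse in turn gave 0 to 17, 5 to 221 and 40 to 213 genes in monocytes and 5 to 249, 26 to 334 and 94 to 276 in macrophages for E0771-Res1 and E0771-Res2 against parental and for E0771-Res2 against E0771-Res1, with 0 to 1 and 0 to 1 members in the first 2 monocyte comparisons and 0 to 5, 0 to 2 and 0 to 2 members in macrophages. In T cells it gave 0 to 10, 6 to 96 and 6 to 62 genes and 0 to 1 members, and in dendritic cells 0 to 10 and 0 to 1 genes for the comparisons of E0771-Res2. The Ly6a difference in T cells ranged from -0.16 to 0.16 for E0771-Res1 and from -0.22 to 0.10 for E0771-Res2 against parental. It changed sign for E0771-Res1 with the replicate block (0.000136), at least 3 Cd3 UMIs (0.12) and Lyz2-low cells (0.12), and for E0771-Res2 with Lyz2-low cells (0.18). Ifitm2 changed sign with library totals (-0.10) and Ifitm6 at a limit of 20 (0.054) in the interferon comparison. Of 1527 uncalled member differences over all alternatives, 70 had another sign than with the settings of the report. Depth limits Ly6c1, the dendritic fits (14 to 44 cells per mouse) and Res2, whose cells were the shallowest.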

Other observations

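Some classes were too small for a test and are given as sums over mice, with exact Poisson 95% intervals that cover counting error only. In 20 cells of the plasmacytoid dendritic gate, from 7 mice, Ly6c2 stood at 4509 CPM (4186 to 4851), Ly6a at 2956 CPM (2695 to 3235) and Ly6e at 3394 CPM (3114 to 3692), while Ifitm6 stood at 37.6 CPM (13.8 to 81.8). In 23 cells of the neutrophil gate, from 7 mice, Ly6i stood at 468 CPM (333 to 640), Ifitm1 at 865 CPM (677 to 1089), Ifitm2 at 3651 CPM (3252 to 4086) and Ly6a at 480.4 CPM (343 to 654). In 30 cells of the B cell gate, from 8 mice, Ifitm3 stood at 4461 CPM (4145 to 4795) and Ly6e at 2906 CPM (2651 to 3178). The same cells held Ifitm6 at 242 CPM (173 to 330), beside a median of 409 CPM in monocytes, and Ly6c2 at 896 CPM (757 to 1052). The part of free RNA or of doublets in these B cell gate levels was not tested. Among family genes outside the 9 members, Ifitm5 held 134 UMIs over the 6 gated classes of the report, Ifitm10 held 102 and Ly6d held 83. Ly6g, the marker gene of neutrophils, held 3 there, and these classes leave out the neutrophil gate. In the mature dendritic gate, Ly6a stood at 1798 CPM in parental replicate 3, from only 10 cells, and at no more than 603 CPM in the other 7 mice.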
